A study of Homo sapiens with 6 samples.

Results

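A set of 10 genes for plasma membrane carriers of glutamine, cystine and other amino acids was followed in U251 glioma cells on 2 kinds of fiber. The genes were SLC38A1, SLC38A2, SLC38A3, SLC1A4, SLC1A5, SLC7A1, SLC7A5, SLC7A11, SLC3A2 and SLC6A9. A probe set counted as a member when the platform annotation gave it exactly 1 gene symbol and that symbol was among these 10. This gave 25 probe sets of 41091 with 1 symbol, for 10 genes of 19775. SLC38A3 and SLC7A11 had been noted for differences of opposite sign between the substrates, so the set was chosen by values of the comparison itself. The differences below are therefore a description, and no test is built on them.

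U251 is an established human glioma line. Cells of the line, named U251MG in the labels, grew for 24 h on nanofibers that lay highly aligned (3 cultures) or in random orientation (3 cultures), both electrospun from the polyester poly-caprolactone. Both groups grew on 60 mm dishes in DMEM with 10% fetal bovine serum and received nothing else. The cultures are described as independent, and each was read on 1 Affymetrix HG-U133 Plus 2 array. Values are on the log2 scale after RMA, so differences are on that scale too. A culture was read as a whole, so a difference in all cells and one in part of the cells cannot be told apart.

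Cells take up neutral amino acids through carriers of several families. Sodium-coupled SLC38 proteins load glutamine and small neutral amino acids, SLC1 exchangers swap one neutral amino acid for another, and SLC7 light chains exchange large neutral amino acids or cystine while bound to the heavy chain SLC3A2. In the brain, SLC38A3 is known from astrocytes, which pass glutamine to neurons, and SLC7A11 imports cystine for glutathione in exchange for glutamate, a trait studied in gliomas. Several of these genes are known targets of ATF4, the transcription factor that cells make more of when amino acids run short.

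In 9 of the 10 genes the mean was higher on aligned than on random fibers, and in 1, SLC38A3, it was lower. Over all genes 52.5% had a difference above 0 and 47.5% one below 0. The positive log2 differences ran between 0.20 for SLC38A2 and 0.88 for SLC6A9, and SLC38A3 was at -0.78. The median over the 10 genes was 0.55, and 0.36 without aligned 3, against 0.01 over the 12381 genes compared. Of the 25 member probe sets, 22 passed the filter on dim signal, and 0 of them met the limma threshold of 0.05 after Benjamini-Hochberg adjustment, with adjusted p between 0.506 and 0.752. Of all 27621 probe sets 0, or 0%, met it, while 2676, or 9.69%, had an unadjusted p under 0.05. Among the members 15 probe sets were higher and 1 was lower at that unadjusted limit, beside 3.86% higher and 5.83% lower over the 27621. The count of 15 was 5 without random 3 and 6 without random 2. Over all probe sets the count in either direction fell as well, from 2676 to 1240 of 27333 and 1519 of 27332.

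The array of aligned replicate 3 lay apart from the others. Measured from the average random array, its root mean square distance over all genes was 0.38 log2 units, with 0.17 and 0.19 for aligned 1 and 2. Members are therefore given array by array, with their difference without aligned 3 at least where it changed by over 1.5 times. Of 8 glial and glioma markers, VIM, NES, CD44, SOX9 and FABP7 stood at or above the 97.3 percentile of the array, while GFAP, S100B and CHI3L1 stood at 49.1, 41.2 and 32.5. Of markers of other cells, PTPRC, EPCAM, CDH1 and CDH5 stood between 13.6 and 26.3, while VWF, KDR, AIF1, CD3E, KRT8 and PECAM1 stood between 49.5 and 63.5 and KRT18 at 92.1. The neuron markers RBFOX3, SNAP25, SYT1 and TUBB3 stood at 49.6, 63.4, 74.0 and 98.9. The summed log2 value of the 6 glial markers that passed the filter was 63.3 to 67.7 on aligned and 67.3 to 69.2 on random fibers, and that of the 4 neuron markers was 31.9 to 32.3 on aligned and 31.2 to 31.7 on random fibers. By their means all 6 glial markers were lower on aligned fibers, with a median log2 difference of -0.39, and -0.20 without aligned 3. Of the 4 neuron markers 3 were higher and 1 was lower, with a median of 0.12. In both lists 0 passed the adjusted test. The 3 endothelial markers summed to 17.4 to 18.4 on aligned and 17.5 to 18.1 on random fibers, the 2 leukocyte markers to 11.8 to 12.1 on aligned and 11.3 to 11.9 on random ones, and the 2 epithelial markers to 16.2 to 16.7 on aligned and 16.1 to 16.2 on random ones. The part of these markers and of aligned 3 in the transporter values was not tested.

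**Figure D1:**
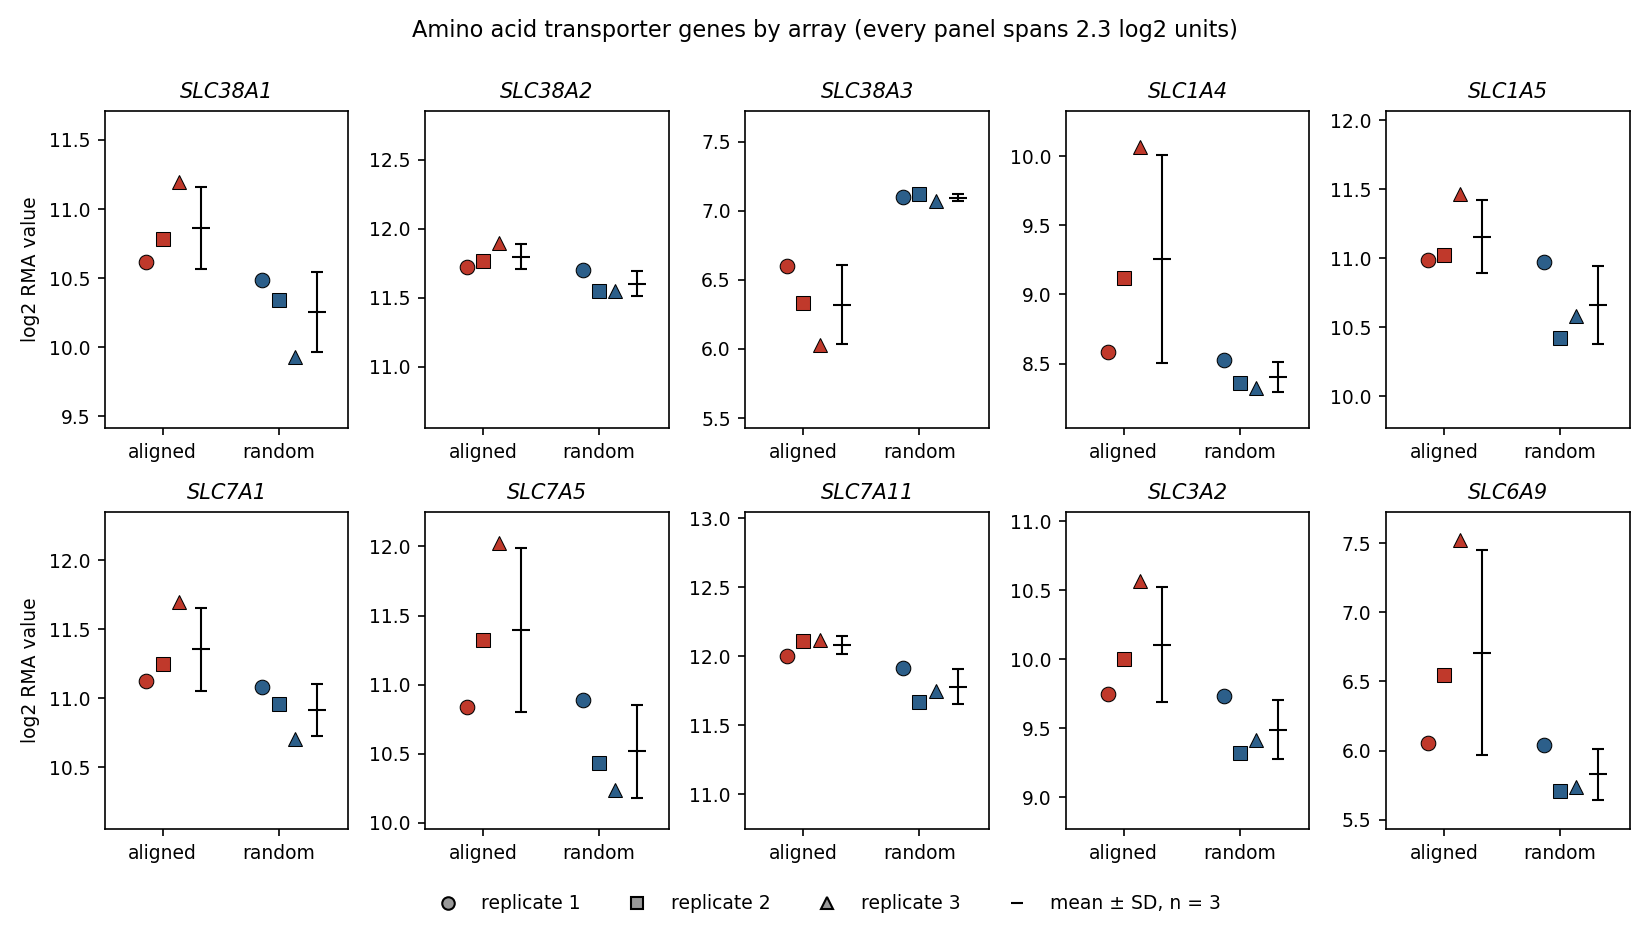
Log2 RMA value (vertical axis) of the 10 transporter genes, each by its brightest kept probe set, on the 3 aligned (left, red) and 3 random arrays (right, blue), with the mean ± SD beside each group. SLC38A3 lies lower on every aligned array, and in the other 9 genes aligned 3 is the highest of all 6 arrays and random 1 the highest random one.

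SLC38A3, the system N carrier that moves glutamine, histidine and asparagine in either direction, was the one gene lower on aligned fibers. Its single probe set read 6.60, 6.34 and 6.03 on aligned 1 to 3, against 7.10, 7.12 and 7.07 on random 1 to 3. All 3 aligned arrays lay below all 3 random arrays, and the random arrays were nearly equal while the aligned ones were spread. The mean was 6.32 ± 0.29 on aligned fibers (SD, n = 3) against 7.10 ± 0.03 on random ones (SD, n = 3), or 1.71-fold higher in the random cultures. The log2 difference was -0.78 ± 0.14 (SE) and -0.63 without aligned 3. The probe set stood at the 65.0 percentile of the array, so its signal was modest, and the annotation gave the gene no other probe set.

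SLC38A1 and SLC38A2 are system A carriers, which bring glutamine, alanine and serine into the cell with sodium. SLC38A1 read 10.62, 10.78 and 11.19 on aligned and 10.49, 10.34 and 9.93 on random fibers, a log2 difference of 0.61 ± 0.19 (SE) or 1.53-fold. Its groups did not overlap, but aligned 1 was only 0.13 above random 1. The 3 kept probe sets of SLC38A1 gave nearly the same difference, between 0.61 and 0.65, and 1 dim set was left out by the filter. SLC38A2, the system A carrier known to be induced when amino acids are withdrawn, read 11.73, 11.76 and 11.90 on aligned and 11.70, 11.55 and 11.55 on random fibers. Its groups did not overlap either, yet the log2 difference was 0.20 ± 0.08 (SE), the smallest in size of the 10 genes. The 3 probe sets of SLC38A2 lay between 0.17 and 0.20, and the one that stands for the gene carries the suffix of sets that may also bind other transcripts. The 3 SLC38 genes thus held differences of either sign.

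SLC1A4 and SLC1A5 are sodium-dependent exchangers, SLC1A4 for alanine, serine and cysteine and SLC1A5 also for glutamine. SLC1A4 read 8.58, 9.12 and 10.07 on aligned and 8.53, 8.36 and 8.33 on random fibers. Aligned 1 was only 0.06 above random 1, and aligned 3 stood well above aligned 2. The log2 difference of SLC1A4 was 0.85 ± 0.33 (SE), or 1.81-fold, and 0.45 without aligned 3. Its 4 kept probe sets differed by 0.63 to 0.91, and by 0.35 to 0.46 without aligned 3. SLC1A5 read 10.99, 11.02 and 11.46 on aligned and 10.98, 10.42 and 10.58 on random fibers, a log2 difference of 0.50 ± 0.18 (SE). Here random 1 lay level with aligned 1, and the separation of the groups rested on 0.01 log2 units.

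SLC7A5, the light chain that exchanges leucine and other large neutral amino acids for glutamine, read 10.84, 11.33 and 12.02 on aligned and 10.89, 10.43 and 10.23 on random fibers. Its groups overlapped, since random 1 lay above aligned 1. The log2 difference was 0.88 ± 0.30 (SE), or 1.84-fold, and 0.56 without aligned 3. SLC3A2, the heavy chain that carries SLC7A5 and SLC7A11 to the membrane, read 9.75, 10.00 and 10.56 on aligned and 9.73, 9.32 and 9.41 on random fibers. Its order of arrays began as in SLC7A5, with aligned 3 highest and aligned 2 next. The log2 difference of SLC3A2 was 0.62 ± 0.21 (SE), or 1.53-fold, and 0.39 without aligned 3.

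SLC7A11, the cystine and glutamate exchanger, read 12.00, 12.11 and 12.12 on aligned and 11.92, 11.67 and 11.75 on random fibers. The aligned arrays were close to each other, and aligned 3 was level with aligned 2. The mean was 12.08 ± 0.06 on aligned fibers (SD, n = 3) against 11.78 ± 0.13 on random ones (SD, n = 3). The log2 difference was 0.30 ± 0.09 (SE), or 1.23-fold, and 0.28 without aligned 3. The other 2 probe sets of SLC7A11 gave 0.32 and 0.39 and, without aligned 3, 0.30 and 0.39. In the probe set with 0.39 the groups overlapped, with 8.76, 8.56 and 8.65 on aligned and 8.63, 7.92 and 8.26 on random fibers. The probe set that stands for the gene was bright, at the 98.7 percentile of the array.

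SLC7A1 carries the cationic amino acids arginine and lysine. It read 11.13, 11.25 and 11.70 on aligned and 11.08, 10.96 and 10.71 on random fibers, a log2 difference of 0.44 ± 0.16 (SE), and 0.27 without aligned 3. Its 4 kept probe sets disagreed in size, at 0.44, 0.42, 0.16 and 0.16, and in those at 0.16 the groups overlapped. The last set of the gene was too dim for the filter. SLC6A9, the glycine carrier GlyT1, read 6.06, 6.55 and 7.52 on aligned and 6.04, 5.70 and 5.73 on random fibers. It had the highest difference of the 10 at 0.88 ± 0.33 (SE), or 1.84-fold, but 0.48 without aligned 3. Its single probe set was also the dimmest of those standing for a gene, at the 58.9 percentile of the array.

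**Figure D2:**
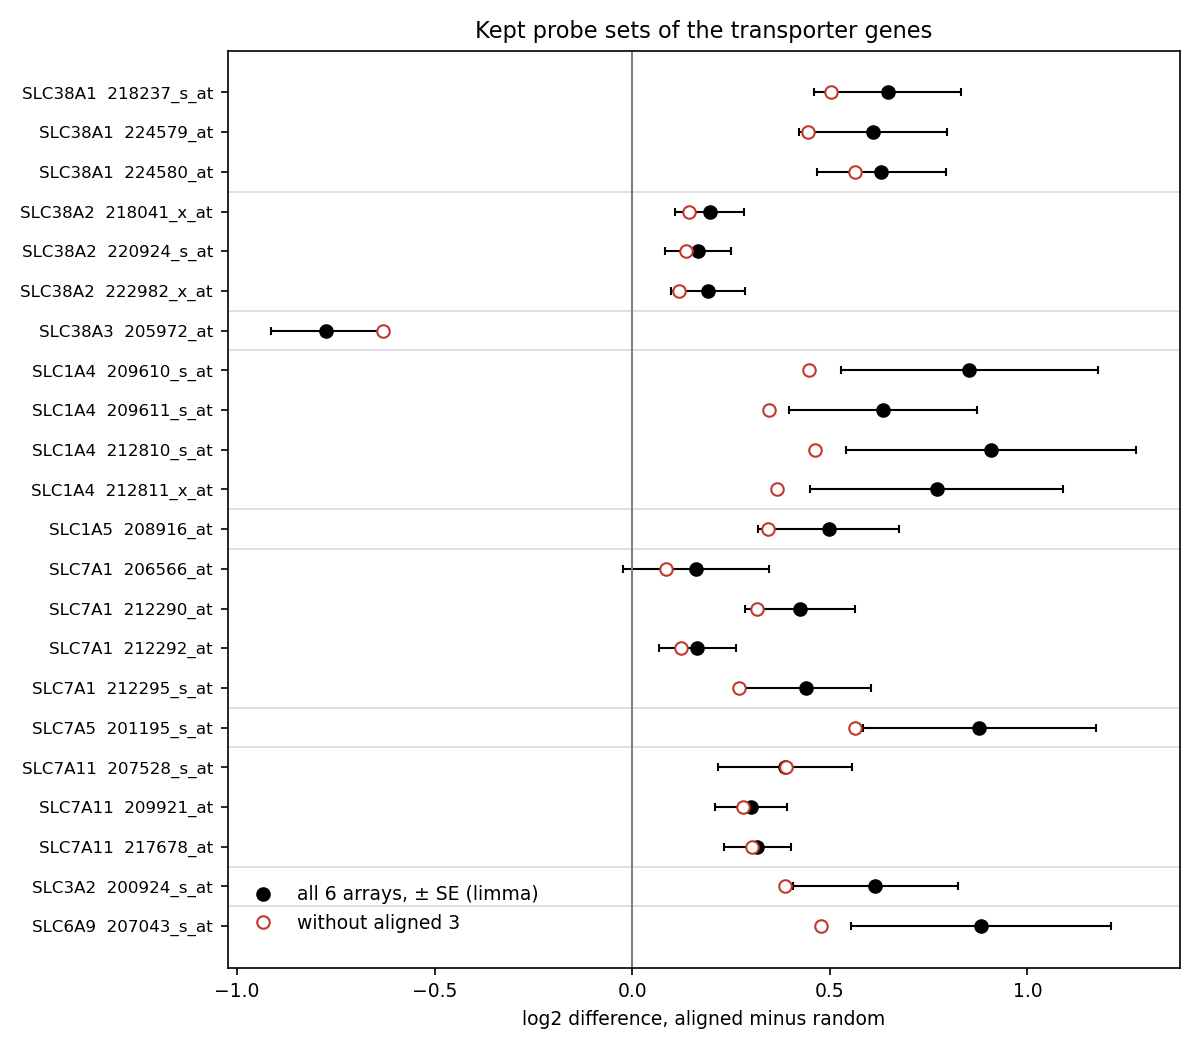
Log2 difference (aligned minus random, horizontal axis) of the 22 kept probe sets, with filled points and ± SE bars from limma for all 6 arrays and open points without aligned 3. The open points of SLC6A9 and of most SLC1A4 probe sets move furthest toward 0, while those of SLC7A11 stay at 0.28 to 0.39.

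The spread within each substrate was patterned. Random 1 was the highest random array in 21 of 22 kept member probe sets, beside 31.8% of all 27621. Aligned 3 was the highest of the 6 arrays in 19 of 22, beside 28.6% of all. The 22 come from 10 genes, and 21 of them were higher on aligned fibers. Shares over all probe sets or genes, which go either way, are therefore no like comparison for the place of aligned 3. Aligned arrays did not overlap with random ones in 16 member probe sets on the higher side and 1 on the lower side, beside 7.61% and 8.86% over the table. In 9 of 10 genes aligned 3 was above aligned 2 and aligned 2 above aligned 1, beside 30.6% of all genes. In SLC38A3 the same 3 arrays stood the other way round. The SD was larger on aligned than on random fibers in 13 of 22 kept member probe sets, or 59.1%, the same share as the 59.1% of all 27621. Counted by genes it was larger in 8 of 10, beside 60.4% of all genes.

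Arrays were also compared by replicate number, though the labels do not say what arrays of equal number share. Between aligned 1 and random 1 the median log2 difference of the 10 genes was 0.02, between the arrays numbered 2 it was 0.52 and between those numbered 3 it was 1.07. Over all genes these medians were -0.00, 0.01 and 0.02. SLC38A3 differed by -0.50, -0.79 and -1.04 between arrays numbered 1, 2 and 3. Since its groups did not overlap, any other matching of the arrays would also give only differences below 0. SLC7A5 differed by -0.05, 0.90 and 1.79, SLC1A4 by 0.06, 0.76 and 1.74, and SLC6A9 by 0.02, 0.85 and 1.79. In these 3 genes next to nothing separated the arrays numbered 1. SLC7A11 differed by 0.09, 0.44 and 0.37 and SLC38A1 by 0.13, 0.44 and 1.26. When the fit held that number as a block, the member count at an unadjusted p under 0.05 was 14 higher and 1 lower, beside 5.41% higher and 8.03% lower over the 27621 probe sets in that fit.

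**Figure D3:**
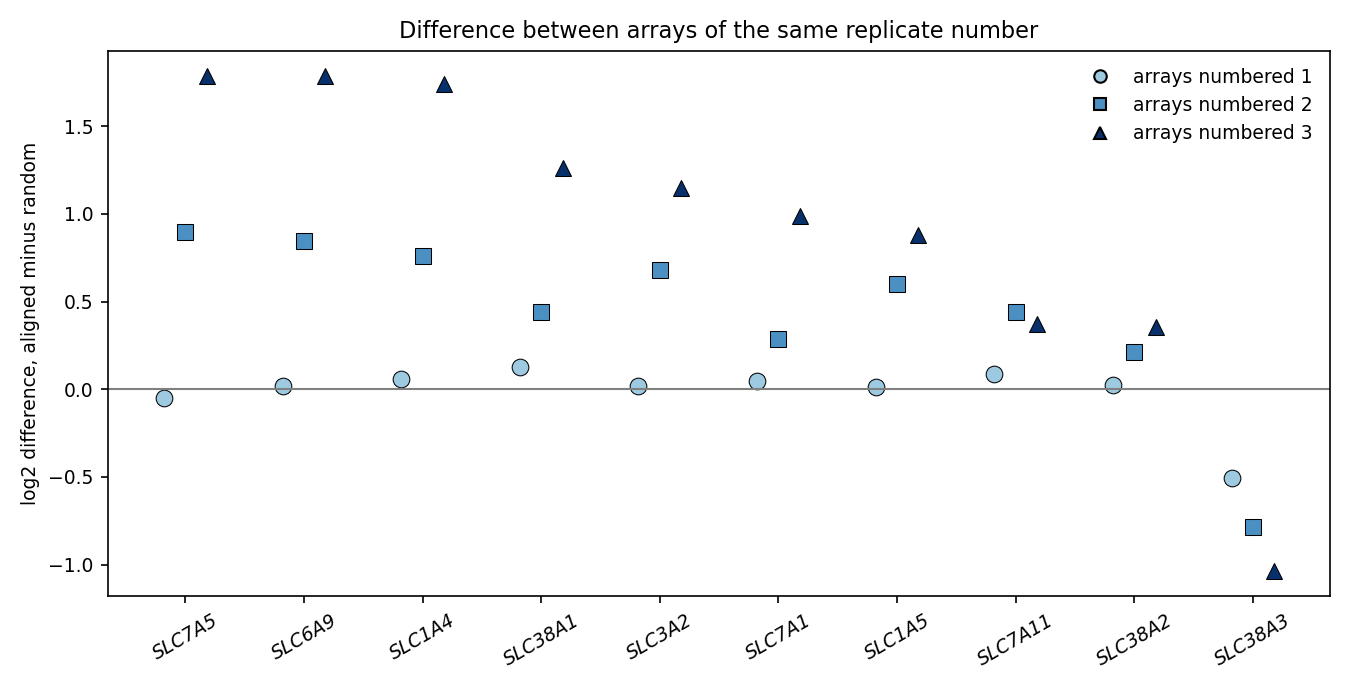
Log2 difference (aligned minus random, vertical axis) between arrays of equal replicate number for the 10 genes, ordered by the difference between the arrays numbered 3. Circles (number 1) lie near 0 for every gene but SLC38A3, and triangles (number 3) reach 1.79.

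Promoter sequences of the members were searched because 9 of the genes had differences of the same sign and several are known ATF4 targets. The motif TGATGNAA, the core of the element bound by ATF4 with C/EBP partners, was sought on both strands in RefSeq windows of 250 bases before and 50 after each annotated start (GRCh38.p14). Of the 10 genes, 8 had windows in the table, while SLC38A3 and SLC7A11 had none. The motif lay in 5 of 14 member windows (35.7%), which belong to 5 of 8 genes, SLC38A1, SLC1A4, SLC1A5, SLC7A1 and SLC3A2. Over all windows of this length 3.62% held it, and 4.46% of genes had at least 1 such window. Genes with several annotated starts have more windows, so shares of genes depend on that number. The 5 matches are shown so that their letters can be compared, each as 30 bases on the strand of the gene with the match in capitals.
SLC38A1, chr12:46266502-46266531, minus strand: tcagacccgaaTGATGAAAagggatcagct
SLC1A4, chr2:64989381-64989410, plus strand: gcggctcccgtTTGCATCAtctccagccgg
SLC1A5, chr19:46784893-46784922, minus strand: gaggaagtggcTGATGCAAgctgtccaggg
SLC7A1, chr13:29595663-29595692, minus strand: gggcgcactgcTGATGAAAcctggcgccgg
SLC3A2, chr11:62881719-62881748, plus strand: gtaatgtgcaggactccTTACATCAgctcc

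The match of SLC1A5 is the one wholly upstream of its start, at -97 to -90 counted from an annotated start at position 1, and belongs to 1 of 3 starts of that gene. The matches of SLC38A1 and SLC1A4 span the start, at -4 to 4 and -7 to 1, and those of SLC7A1 and SLC3A2 lie at 8 to 15 and 38 to 45. In SLC1A4 and SLC3A2 the motif runs on the strand opposite to the gene. SLC1A4 and SLC1A5 hold the same 8 letters when read on the strand of the motif. The 250 bases before that start of SLC1A5 are printed to show the surroundings of the upstream match.
SLC1A5, chr19:46784815-46785064, minus strand: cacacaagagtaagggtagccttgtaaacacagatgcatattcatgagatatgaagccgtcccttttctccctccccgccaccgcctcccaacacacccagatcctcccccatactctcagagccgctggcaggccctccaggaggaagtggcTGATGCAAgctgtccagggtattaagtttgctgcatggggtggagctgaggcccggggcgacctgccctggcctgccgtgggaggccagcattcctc
The 3 genes without the motif in these windows were SLC38A2, SLC7A5 and SLC6A9, with differences of 0.20, 0.88 and 0.88. A match in letters is not a measured binding site.

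ATF4 itself read 11.39, 11.77 and 12.32 on aligned and 11.41, 11.14 and 11.02 on random fibers. The order of the arrays was that of SLC7A5, with random 1 just above aligned 1. The log2 difference of ATF4 was 0.64, and 0.39 without aligned 3. ATF4 was among 11 transcription factors and regulators of the amino acid response, of which 5 were at an unadjusted p under 0.05 on the higher side and 0 on the lower, beside 4.72% and 5.81% over all genes, and 0 passed the adjusted test. The count of 5 was 0 without random 3 and 1 without random 2. The list had a median of 0.44 and of 0.22 without aligned 3. The smallest p in it belonged to TRIB3, a pseudokinase that restrains the response, and to CEBPG, a dimer partner of ATF4, at 0.95 and 0.60, and at 0.60 and 0.37 without aligned 3, followed by ATF4.

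The other amino acid carriers lay nearer to 0. Of 35 genes listed, 19 passed the filter, with 12 above and 7 below 0 and a median of 0.03, which was -0.0067 without aligned 3. None was at an unadjusted p under 0.05 on the higher side and 3 were on the lower, beside 4.72% and 5.81% over all genes. The adjusted test was passed by 0. The 3 were SLC1A1, a glutamate carrier, at -0.28, SLC6A6, the taurine carrier, at -0.47, and SLC43A2, a carrier of large neutral amino acids, at -0.20. SLC6A6 read 10.41, 10.17 and 9.71 on aligned and 10.63, 10.64 and 10.41 on random fibers, so that aligned 1 lay level with random 3, and differed by -0.27 without aligned 3. The count of 3 was 1 without aligned 2 or random 2, and the count of 0 was 2 without aligned 1 and 3 when dim probe sets were kept. The difference between both sets of carriers has no test here, since the 10 were chosen with their values known.

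Enzymes that use the carried amino acids differed by list. In glutamine and glutamate metabolism, 15 of 20 genes were measured, and the median was 0.09, or 0.03 without aligned 3. At an unadjusted p under 0.05 there were 2, both higher, beside 4.72% higher over all genes. The adjusted test was passed by 0. The count of 2 was 3 without aligned 1 and 1 without aligned 2, aligned 3, random 1 or random 2. GLUD1, glutamate dehydrogenase, differed by 0.25, GMPS of guanine nucleotide synthesis by 0.17 and PFAS of purine synthesis by 0.30. GLUD1 read 10.63, 10.69 and 10.75 on aligned and 10.44, 10.48 and 10.42 on random fibers, with 0.22 without aligned 3, whereas PFAS was at 0.17 there. In serine and glycine synthesis, 9 of 10 genes were measured with a median of 0.31, which was 0.10 without aligned 3. Of these, 4 were at an unadjusted p under 0.05, all higher, beside 4.72% higher over all genes, and 0 passed the adjusted test. The count of 4 was 2 without aligned 2, random 2 or random 3. The 3 with the smallest p were PSAT1 at 0.74, MTHFD2 of mitochondrial folate metabolism at 0.64 and PHGDH, which commits carbon to serine, at 0.73. Without aligned 3 MTHFD2 was at 0.42 and PHGDH at 0.45.

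Genes that make or use cysteine and glutathione included differences above 1 log2 unit. Of 14 genes for glutathione synthesis and cystine use 12 were measured, with a median of 0.15. At an unadjusted p under 0.05 there were 4 higher and 0 lower, beside 4.72% and 5.81% over all genes, and 0 past the adjusted test. The count of 4 was 2 without random 2 or random 3. TXNRD1, the cytosolic thioredoxin reductase, read 12.24, 12.06 and 12.22 on aligned and 11.96, 11.61 and 11.75 on random fibers, a log2 difference of 0.40 and 0.38 without aligned 3. CBS and CTH, which make cysteine from homocysteine, differed by 1.23 and 1.35, but by 0.83 and 0.76 without aligned 3. In CBS the groups overlapped, with aligned 1 at 8.341 and random 1 at 8.347. CBS has a near-identical annotated copy, CBSL, and its signal may hold both. CTH read 7.71, 8.28 and 9.78 on aligned and 7.64, 6.99 and 7.08 on random fibers, with aligned 1 and random 1 side by side as in SLC1A4.

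Genes of amino acid sensing and of the growth kinase mTORC1 with its regulators lay on both sides of 0. Of 21 genes 19 were measured, with 8 above and 11 below 0 and a median of -0.01. There were 0 higher and 4 lower at an unadjusted p under 0.05, beside 4.72% and 5.81% over all genes, and 0 past the adjusted test. The count of 4 was 2 without aligned 3 and 1 without random 2 or random 3, and the count of 0 higher was 2 without aligned 1. SESN3, a sestrin, differed by -1.13, the GTPase gene RRAGA by -0.28 and SESN1, another sestrin, by -0.27. The last sestrin of the list, SESN2, chosen for mention once its value was known, was higher at 1.14 (0.57 without aligned 3). SESN3 read 8.19, 8.02 and 7.02 on aligned and 8.93, 8.64 and 9.05 on random fibers. As in SLC38A3, every aligned array of SESN3 lay below every random one, and its difference was -0.77 without aligned 3. RRAGA was then at -0.18.

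**Figure D4:**
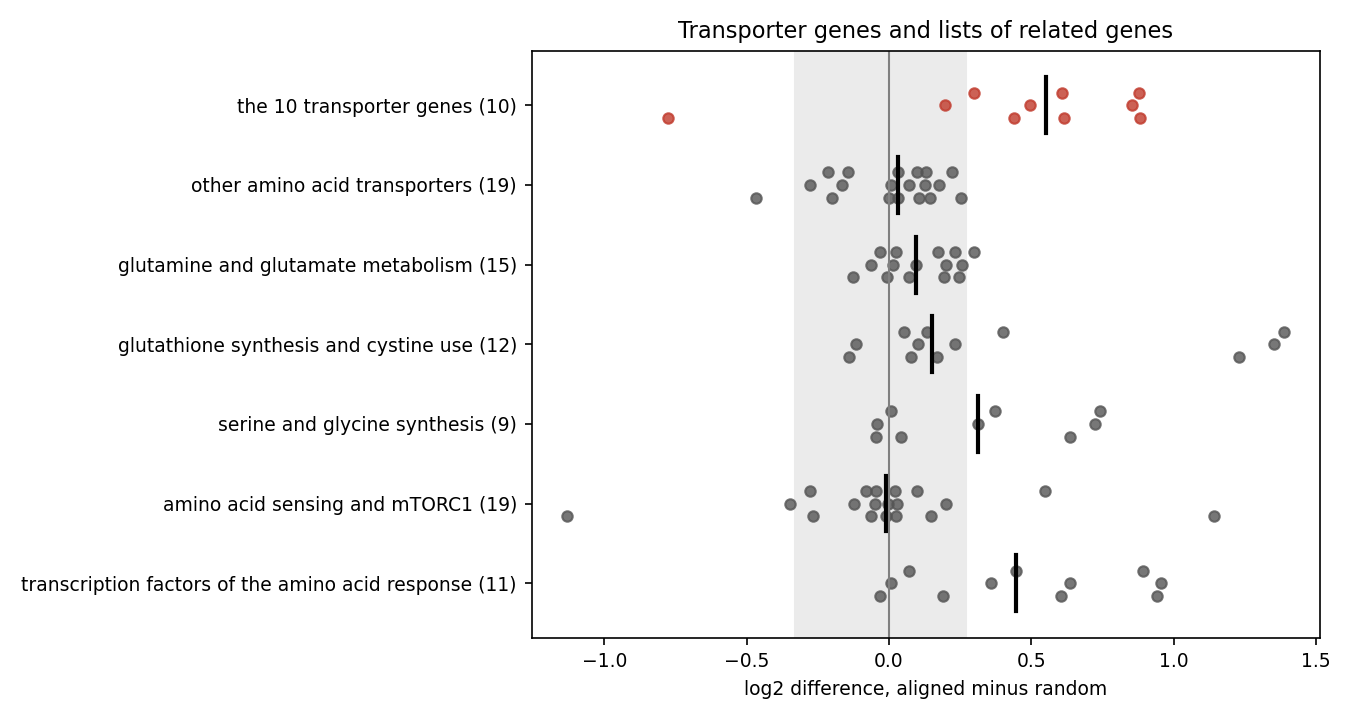
Log2 difference (aligned minus random, horizontal axis) of each gene measured in the 10 transporter genes (red) and in 6 lists of related genes (grey, with the number measured in brackets). Black bars are medians and the grey band spans the 5th to the 95th percentile of all genes, -0.33 to 0.27. The transporter genes have a median of 0.55 and the other carriers one of 0.03, which are 0.36 and -0.0067 without aligned 3.

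The genes whose values over the 6 arrays lay nearest to a transporter were sought by root mean square distance, each gene taken as its deviation from its own mean over the random arrays. For SLC38A3 the 5 nearest of the 12381 genes were PDZRN3, POPDC1, CXXC5, NACC2 and EDNRB, at 0.07 to 0.14 log2 units, beside a median distance of 0.59. For SLC7A11 they were CCDC59, ZNF330, HPCAL1, NIFK and NAMPT, at 0.05 to 0.06 log2 units, beside a median of 0.25. Without aligned 3, 2 of the 5 neighbours of SLC38A3 were again among the nearest 5, and 0 of the 5 neighbours of SLC7A11 were. The 2 were PDZRN3 and POPDC1.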

How the data were processed

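Per the submitters' processing notes the authors made the deposited log2 values, 1 per probe set and array, with RMA (version not given in the sources used here). Groups and replicate numbers came from the sample titles. The 62 control probe sets were set aside, and of the other 54613 those with at least 3 of 6 arrays above the array's own median were kept (27621). The number of arrays limits the precision. Aligned minus random was tested with limma 3.58.1 (lmFit, eBayes, R 4.3.3), two-sided, without covariates, on all kept probe sets and on 12381 genes, each represented by its kept probe set with the highest mean. Benjamini-Hochberg adjustment ran over the whole table. No enrichment test was run. Tested on simulated data, drawn with the spread of the 27621 probe sets and 3 arrays per group, the code recovered 81% of 100 probe sets shifted by a log2 of 1 and 98% of 100 shifted by 2. The simulated noise was independent between probe sets, without the deviations that probe sets of a real array share. These shares therefore check the code and do not say what the real arrays can detect. In the real arrays the lowest adjusted p of any probe set in limma was 0.506.

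The members, the lists of related genes and the rule for named genes were chosen with earlier results of these data known. All 10 members were named, and from each list the 3 genes with the smallest unadjusted p, ATF4, and the 5 nearest genes of SLC38A3 and SLC7A11. SESN3, GLUD1, CTH, TXNRD1 and SLC6A6 were given array by array after their values were seen. Gene symbols of all 10 members matched the RefSeq gene table by gene identifier. Promoter windows are from RefSeq on GRCh38.p14.

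Replicate numbers occur in both groups without a statement of what they share. Across genes, the deviations of same-numbered arrays from their group means had correlations of 0.369, 0.322 and 0.109. The third was barely above the limit of 0.1. On these values alone same-numbered arrays were compared, and a fit blocked on the number was an alternative. The limma fit without covariates held no pairs. In 9 of the 10 member genes random 1 was the highest random array and aligned 1 the lowest aligned one. The arrays numbered 1 thus lay on opposite sides of their group means there. The other alternatives concerned the filter, the scaling, the prior, array weights, the representation of a gene, probe sets that share sequence, and each array left out in turn. Figures were drawn with matplotlib 3.10.9.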

Additional observations from a re-analysis of the deposited data

How the results depend on the processing

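All 144 recomputed differences of the 10 genes kept their sign, with SLC38A3 between -0.91 and -0.63 and SLC7A11 between 0.25 and 0.38. All also stayed within 1 SD between arrays, but most could not have done otherwise. With 3 arrays per group, leaving 1 out cannot move the difference of a probe set by that much. The prior and the block leave it unchanged. The count of 144 is therefore no measure of stability. It also holds values per gene and not per probe set. With array weights a kept probe set of SLC7A1 was at -0.066 in place of 0.16. Without suffixed probe sets SLC1A4 was at 0.44 in place of 0.85, from 1 dim probe set, and SLC38A2, SLC7A5, SLC3A2 and SLC6A9 had no value, and with the filter at the 75th percentile SLC38A3 and SLC6A9 had none. Array weights, which gave aligned 2 a weight of 8.49 and aligned 3 one of 0.308, passed 291 probe sets and 2101 genes at the adjusted threshold, 1 member probe set among them (SLC38A3, adjusted p = 0.0382 in limma), with 6789 probe sets at an unadjusted p under 0.05, and gave a median of 0.22 for glutathione synthesis. In the other settings 0 member probe sets passed. No filter gave 4698 of 54613 probe sets at an unadjusted p under 0.05 and the 75th percentile 1380 of 13837, beside 2676 of 27621 with the filter used. The 75th percentile left 0 members lower by p or by separation, with SLC38A3 absent. Its medians were -0.056 for other carriers and 0.17 for glutamine metabolism. Without suffixed probe sets 7 of 10 member probe sets were higher at an unadjusted p under 0.05 and 6 of 10 did not overlap on the higher side. With them these counts were 15 and 16 of 22, beside 3.86% and 7.61% over all 27621. Of all 18926 probe sets without a suffix, 1899 were at that unadjusted limit in either direction. The shares of these that were higher, or did not overlap on the higher side, were not computed. The counts of 7 and 6 thus have no like share beside them. With each array left out in turn, 0 to 1 probe sets passed the adjusted threshold, 1240 to 4763 the unadjusted one, and 5 to 17 member probe sets were higher. Medians then ran from 0.031 to 0.18 for glutamine metabolism, 0.12 to 0.23 for glutathione synthesis and 0.10 to 0.43 for serine synthesis. The replicate block gave 3710 probe sets at an unadjusted p under 0.05, 0 past the adjusted threshold and 14 in place of 15 member probe sets higher. Over the lists it moved 1 count at an unadjusted p under 0.05 by over 1.5 times, to 5 in place of 2 higher genes of glutamine metabolism. The causes were not tested. Differences at the dim probe sets of SLC38A3 and SLC6A9 rest on signal without detection calls.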
